A study of Homo sapiens with 6 samples.

Results

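The genes described here are 39 genes of homologous recombination, of the Fanconi anemia pathway and of the checkpoint kinases that act with them, found by gene symbol among the 18118 genes of a count table of SU-CCS-1 cells. SU-CCS-1 is a human clear cell sarcoma line that carries the fusion gene EWSR1::ATF1, here called EA1, in every group. The line was transfected with a scramble control siRNA, with EA1 siRNA 1 or with EA1 siRNA 2, by the methods for 48 h with 5 pmol per well, and each of these 3 conditions has 2 RNA-seq libraries. The methods of the study describe 1 siRNA against the fusion transcript, whereas the labels list both, and nothing in the sources used here says which of them the methods mean. All values come from 1 cell line, and nothing in the labels says whether the libraries of a condition came from separate cultures, so the p-values measure the spread between libraries, which may be technical.

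Levels are given as CPM, read counts scaled to a common library size, and changes as log2FC, the log2 ratio of control over knockdown, so that a positive log2FC means a lower level after knockdown. A gene is said to rise or fall only where its adjusted p was under 0.05 in edgeR's quasi-likelihood test over 14571 genes. The libraries held between 5942808 and 7599305 counts, and 3 counts correspond to between 0.395 and 0.505 CPM. The lowest count of any of the 39 genes in a library was 20 and the highest was 1507. ATF1, whose 3′ part the fusion transcript contains, was measured at 82.2 and 87.4 CPM in the control libraries, 21.2 and 20.3 CPM under EA1 siRNA 1, and 21.7 and 22.3 CPM under EA1 siRNA 2. Its log2FC was 2.03 ± 0.13 (SE) for EA1 siRNA 1 and 1.94 ± 0.13 for EA1 siRNA 2 (adjusted p = 6.70e-07 and 1.05e-06), and the table does not separate fusion reads from reads of the ATF1 gene. EWSR1, the other fusion partner, was not called (adjusted p = 0.450 and 0.789). The 6 melanocytic and clear cell sarcoma markers checked were all in the table, SOX10 at 827 ± 58.1 CPM in control (SD, n = 2). MLANA was at the limit of detection in control, with 4 and 0 counts. SOX10 was not called with either siRNA (adjusted p = 0.522 and 0.125 by edgeR). The other 5, MITF, PMEL, MLANA, TYR and S100B, rose after knockdown with each siRNA. The 6 together summed to between 2633 and 2859 CPM in control and to between 6598 and 10270.0 CPM after knockdown. Of the blood cell markers 0 of 4 were in the table, and the only epithelial marker in it, KRT8, was too low to test. The 2 fibroblast markers in the table were COL1A1, not called, and LUM, which rose after knockdown, and they summed to between 2.70 and 3.44 CPM in control and to between 8.89 and 22.96 CPM after knockdown. The part of these markers in the results was not tested.

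Homologous recombination repairs a broken chromosome by copying the sister chromatid. The broken ends are sensed and cut back to single strands, BRCA1, PALB2 and BRCA2 prepare them to pair with the intact sister, and the joined molecules are later dissolved or cut apart. The Fanconi anemia pathway handles crosslinks between the DNA strands: a core complex attaches ubiquitin to the paired proteins FANCD2 and FANCI, which opens the way to nucleases and then to recombination. Both pathways work mainly in S and G2 phase, when a sister chromatid is at hand, and many of their genes are transcribed most in dividing cells.

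The sequence around a start site is shown for a few of these genes because the fusion keeps the DNA-binding domain of ATF1, whose textbook site is the palindrome TGACGTCA. Each is the RefSeq window (GRCh38.p14) from 250 bases before the start site to 50 after it, on the strand of the gene, and 1 window is printed where a gene has more. Capitals mark the motifs searched on both strands: TGACGTCA, its core TGACG, the AP1 site TGAGTCA, the E2F sites TTTGGCGC, TTTCCCGC, TTTGCCGC and TTTCGCGC, the CCAAT box and the cell cycle element TTTGAA; the core lies within the full site. RAD51C, XRCC2 and EXO1 are shown because a full site lies in the window, CHEK1, EXO1 and FANCE because they had the 3 largest averaged changes, and FANCF because it moved the other way.
RAD51C, chr17:58692323-58692622, plus strand: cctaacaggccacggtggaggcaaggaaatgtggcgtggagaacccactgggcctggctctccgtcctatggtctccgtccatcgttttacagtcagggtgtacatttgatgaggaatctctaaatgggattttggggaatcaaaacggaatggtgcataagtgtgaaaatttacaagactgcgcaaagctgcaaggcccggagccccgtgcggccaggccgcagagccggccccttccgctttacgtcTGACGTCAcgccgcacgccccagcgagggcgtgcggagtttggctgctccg
XRCC2, chr7:152676092-152676391, minus strand: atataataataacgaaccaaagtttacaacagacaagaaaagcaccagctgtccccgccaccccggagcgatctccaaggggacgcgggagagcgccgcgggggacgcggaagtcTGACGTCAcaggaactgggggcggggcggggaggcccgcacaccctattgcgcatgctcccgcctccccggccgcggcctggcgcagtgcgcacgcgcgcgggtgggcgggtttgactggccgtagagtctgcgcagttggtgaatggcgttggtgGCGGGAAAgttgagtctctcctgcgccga
EXO1, chr1:241847954-241848253, plus strand: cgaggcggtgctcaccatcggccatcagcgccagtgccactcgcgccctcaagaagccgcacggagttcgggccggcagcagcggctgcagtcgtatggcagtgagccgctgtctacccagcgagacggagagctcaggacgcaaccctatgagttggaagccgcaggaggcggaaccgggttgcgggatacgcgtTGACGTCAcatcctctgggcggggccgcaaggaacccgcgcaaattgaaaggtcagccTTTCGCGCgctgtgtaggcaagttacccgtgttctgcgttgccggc
CHEK1, chr11:125625979-125626278, plus strand: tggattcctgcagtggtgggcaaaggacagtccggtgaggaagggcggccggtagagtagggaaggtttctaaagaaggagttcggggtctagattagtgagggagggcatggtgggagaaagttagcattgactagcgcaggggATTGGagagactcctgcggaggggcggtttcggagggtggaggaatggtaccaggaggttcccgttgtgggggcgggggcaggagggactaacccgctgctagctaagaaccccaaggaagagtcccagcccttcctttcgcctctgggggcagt
FANCE, chr6:35452088-35452387, plus strand: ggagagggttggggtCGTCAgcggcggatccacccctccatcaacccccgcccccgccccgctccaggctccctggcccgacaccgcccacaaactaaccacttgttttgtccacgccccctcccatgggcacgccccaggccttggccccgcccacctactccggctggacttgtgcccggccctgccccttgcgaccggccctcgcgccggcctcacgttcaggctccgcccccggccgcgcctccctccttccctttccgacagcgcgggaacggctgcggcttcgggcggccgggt
FANCF, chr11:22625774-22626073, minus strand: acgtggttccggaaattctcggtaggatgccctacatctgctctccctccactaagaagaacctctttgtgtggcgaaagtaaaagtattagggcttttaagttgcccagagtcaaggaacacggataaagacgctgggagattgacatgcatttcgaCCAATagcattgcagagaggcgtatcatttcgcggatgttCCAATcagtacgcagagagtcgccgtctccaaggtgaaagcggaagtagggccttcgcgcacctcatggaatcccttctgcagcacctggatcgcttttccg

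Counted from base 1 at the annotated start, with base -1 before it, the positions are those of the first base of a motif. In RAD51C the full ATF/CREB site spans the annotated start, beginning at base -1, in EXO1 it begins at base -54 and in XRCC2 at base -135. EXO1 also has an E2F site at base 5, and XRCC2 has one at base 22, read on the opposite strand. The printed CHEK1 window has a CCAAT box at base -105 and no ATF/CREB core, the FANCE window has a core at base -235, both read on the opposite strand, and the FANCF window has CCAAT boxes at bases -92 and -52. Of the 39 genes, 35 matched a RefSeq window, and 12 of these had more than 1. A gene was counted for a motif where any of its windows held it, and the number of windows per gene over all genes is not given. A full site was found in 3 of the 35 genes (8.57%), against 2.25% of all 27305 genes with a window and 3.94% of the 10319 of those that were tested. The core was in 18 of the 35 (51.4%), against 28.4% of all genes with a window and 40.7% of those tested. An E2F site was in 6 (17.1%, against 3.99% and 6.92%), a CCAAT box in 16 (45.7%, against 39.7% and 43.9%), TTTGAA in 4 (11.4%, against 18.2% and 13.9%) and the AP1 site in 0 (against 6.05% and 4.49%). These are letter matches in a fixed window, given as a description, and the windows of the 35 genes are richer in G and C (median 63.2%) than all windows (median 58.7%).

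Most of the repair genes fell when EA1 was knocked down. With EA1 siRNA 1, 29 of the 39 genes were higher in control, where 20.3% of all genes tested were, and 1 was lower, where 19.9% of all genes were. With EA1 siRNA 2, 27 were higher in control (18.2% of all genes) and 2 were lower (18.5% of all genes). Against the mean of both siRNAs, 31 of 39 were higher in control and 2 lower, beside 22.1% and 21.5% of all genes, and 6 were not called: RAD51D, RAD52, RAD50, MUS81, FANCL and ATM. The median log2FC over the 39 was 1.21 for EA1 siRNA 1, 0.88 for EA1 siRNA 2 and 1.05 on average, where the median over all genes tested was -0.02, -0.00 and -0.01. The comparisons with each siRNA share the 2 control libraries. In a bulk culture, fewer cells that express a gene and less RNA of it per cell cannot be told apart.

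By library, both control values lay above all 4 knockdown values for 31 of the 39 genes (27.3% of all genes tested) and below all of them for 2, FANCF and RAD51B (28.1% of all genes). The groups overlapped for the other 6, which were RAD51D, RAD52, MUS81, FANCL, ATM and FANCC. The averaged log2FC exceeded 1 for 21 of the 39 genes and for 9.66% of all genes tested, and it exceeded 2 for CHEK1 and EXO1 (2.68% of all genes). It was below 0 for RAD51B, RAD52 and FANCF. Of the 39, 25 were called higher in control with each siRNA, beside 2201 of the 14571 genes tested. Another 4 were called higher in control with EA1 siRNA 1 only (BRCA1, NBN, FANCC and FANCM), 2 with EA1 siRNA 2 only (PALB2 and ATR) and 8 with neither. A call with only 1 of the siRNAs does not by itself show that they differed for that gene.

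**Figure D1:**
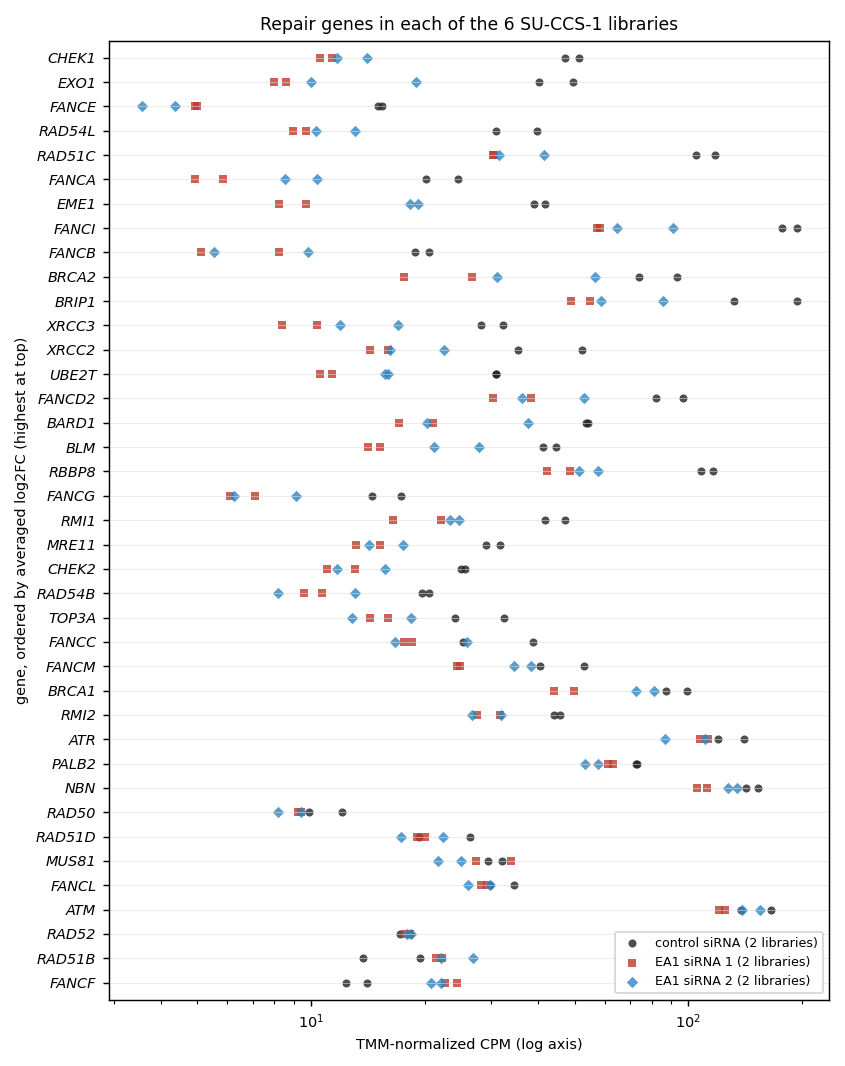
Level of each of the 39 repair genes in each of the 6 libraries, as TMM-normalized CPM on a log axis, with the gene of the highest averaged log2FC at the top. Circles are the 2 control libraries, squares the 2 libraries with EA1 siRNA 1 and diamonds the 2 with EA1 siRNA 2. The circles lie to the right of all other symbols in 31 rows and to the left in 2, RAD51B and FANCF.

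The genes that sense a break and cut back its ends fell as a group of 4 of 5, and EXO1 fell most. EXO1, the exonuclease of long-range resection (chr1:241847967-241895148, plus strand, here as for the other genes by GENCODE 44 on hg38), was measured at 40.1 and 49.6 CPM in the control libraries, 7.96 and 8.56 CPM under EA1 siRNA 1, and 9.97 and 18.95 CPM under EA1 siRNA 2. All 4 knockdown values lay under both control values, with EA1 siRNA 2 replicate 2 nearest to them. The log2FC was 2.44 ± 0.26 (SE) for EA1 siRNA 1 and 1.61 ± 0.25 for EA1 siRNA 2 (adjusted p = 2.49e-05 and 0.000370), a control level 5.44-fold and 3.06-fold that of the knockdowns. RBBP8, better known as CtIP, which starts resection together with MRE11, was measured at 108 and 116 CPM in the control libraries, 48.5 and 42.2 CPM under EA1 siRNA 1, and 51.4 and 57.6 CPM under EA1 siRNA 2. These values fell into separate ranges by treatment, and the log2FC was 1.30 ± 0.12 (SE) for EA1 siRNA 1 and 1.04 ± 0.12 for EA1 siRNA 2 (adjusted p = 7.69e-06 and 4.38e-05). RBBP8 was also among the most strongly expressed of the 39 per length of transcript.

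Of the MRE11-RAD50-NBN complex, which binds the broken end, 2 of 3 genes fell on average. MRE11, its nuclease, fell with both siRNAs (averaged log2FC 1.01 ± 0.15, adjusted p = 0.000223). NBN, the adaptor that recruits ATM, was called with EA1 siRNA 1 (log2FC 0.44, adjusted p = 0.00434) and not with EA1 siRNA 2 (0.17, adjusted p = 0.202). The averaged call of NBN (0.31 ± 0.09, adjusted p = 0.0121) was lost without control siRNA replicate 2 (adjusted p = 0.0973). RAD50, the ATPase that tethers the ends, was measured at 9.88 and 12.1 CPM in the control libraries, 9.39 and 9.22 CPM under EA1 siRNA 1, and 8.19 and 9.41 CPM under EA1 siRNA 2. Its control values lay just above the others, but neither difference was called, at 0.24 ± 0.24 (SE) for EA1 siRNA 1 and 0.32 ± 0.24 for EA1 siRNA 2 (adjusted p = 0.457 and 0.337). RAD50 was the only one of the 39 with fewer than 100 counts in every library.

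All 5 genes of the BRCA1 to BRCA2 axis fell on average. BRCA2, which acts on the resected single strand (chr13:32315086-32400268, plus strand), was measured at 73.9 and 93.3 CPM in the control libraries, 17.6 and 26.7 CPM under EA1 siRNA 1, and 31.2 and 56.7 CPM under EA1 siRNA 2. The 2 siRNAs did not overlap in this gene, and EA1 siRNA 2 replicate 2 stayed closest to control. The log2FC was 1.93 ± 0.26 (SE) for EA1 siRNA 1 and 0.92 ± 0.24 for EA1 siRNA 2 (adjusted p = 0.000123 and 0.0112). For EA1 siRNA 2 it was 0.58 without replicate 1 of that siRNA and 1.46 without replicate 2, and the call was lost without control siRNA replicate 2 (adjusted p = 0.0785). BRIP1, a helicase that binds BRCA1 and is also known as FANCJ, was measured at 132 and 194 CPM in the control libraries, 54.8 and 48.7 CPM under EA1 siRNA 1, and 58.7 and 85.5 CPM under EA1 siRNA 2. Control was above every knockdown library although the control libraries themselves were far apart, and the log2FC was 1.65 ± 0.20 (SE) for EA1 siRNA 1 and 1.17 ± 0.19 for EA1 siRNA 2 (adjusted p = 5.16e-05 and 0.000628).

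BRCA1, a ubiquitin ligase subunit that promotes resection and brings in PALB2 (chr17:43044295-43170245, minus strand), was measured at 87.3 and 99.00 CPM in the control libraries, 49.6 and 43.97 CPM under EA1 siRNA 1, and 72.8 and 81.00 CPM under EA1 siRNA 2. The 3 conditions formed 3 separate ranges, with EA1 siRNA 2 between control and EA1 siRNA 1. The log2FC was 0.99 ± 0.12 (SE) for EA1 siRNA 1 and 0.28 ± 0.12 for EA1 siRNA 2 (adjusted p = 6.01e-05 and 0.0879), and the averaged value of 0.63 ± 0.10 (SE, adjusted p = 0.000348) passed the test. BARD1, the obligate partner of BRCA1 in the ligase, fell with both siRNAs (averaged log2FC 1.18 ± 0.19, adjusted p = 0.000397), and its value for EA1 siRNA 2, 0.88, was 0.54 without replicate 1 of that siRNA and 1.44 without replicate 2. PALB2, the bridge between BRCA1 and BRCA2, had the lowest averaged log2FC of the 5 and was measured at 72.9 and 73.03 CPM in the control libraries, 63.1 and 61.1 CPM under EA1 siRNA 1, and 57.7 and 53.2 CPM under EA1 siRNA 2. Its control values were nearly equal and above the rest, and its log2FC was 0.23 ± 0.11 (SE) for EA1 siRNA 1 and 0.40 ± 0.11 for EA1 siRNA 2 (adjusted p = 0.109 and 0.0134). The averaged value of PALB2, 0.31 ± 0.09 (SE, adjusted p = 0.0159), was called, but it lost the call with DESeq2 over 3 conditions. Without control siRNA replicate 1 or 2 it lost the call too, and so did the value for EA1 siRNA 2.

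The 5 genes RAD51B, RAD51C, RAD51D, XRCC2 and XRCC3, whose proteins form a pair of complexes that assist strand exchange, split 3 ways. RAD51C, which is part of both complexes and has the full ATF/CREB site printed above (chr17:58692573-58735611, plus strand), was measured at 117 and 105 CPM in the control libraries, 30.3 and 30.5 CPM under EA1 siRNA 1, and 31.5 and 41.6 CPM under EA1 siRNA 2. All its knockdown libraries were far under control, and the log2FC was 1.87 ± 0.14 (SE) for EA1 siRNA 1 and 1.597 ± 0.14 for EA1 siRNA 2 (adjusted p = 2.17e-06 and 6.78e-06). XRCC3, the partner of RAD51C in one of the complexes, was measured at 32.3 and 28.3 CPM in the control libraries, 10.4 and 8.40 CPM under EA1 siRNA 1, and 11.9 and 16.99 CPM under EA1 siRNA 2. Here too the ranges were separate, with EA1 siRNA 1 lowest, and the log2FC was 1.68 ± 0.22 (SE) for EA1 siRNA 1 and 1.05 ± 0.21 for EA1 siRNA 2 (adjusted p = 9.55e-05 and 0.00207). XRCC2, of the other complex, also fell with both siRNAs (averaged log2FC 1.35 ± 0.18, adjusted p = 0.000101). RAD51D, of the same complex, was not called (0.21 ± 0.17, adjusted p = 0.347).

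RAD51B, the remaining gene of the 5 (chr14:67819779-68730218, plus strand), moved the other way, at 13.8 and 19.4 CPM in the control libraries, 22.2 and 21.4 CPM under EA1 siRNA 1, and 22.1 and 26.8 CPM under EA1 siRNA 2. All knockdown values were above both control values, by the smallest margin between control replicate 2 and EA1 siRNA 1 replicate 2. The log2FC was -0.39 ± 0.20 (SE) for EA1 siRNA 1 and -0.56 ± 0.20 for EA1 siRNA 2 (adjusted p = 0.152 and 0.0484), and the averaged value of -0.47 ± 0.18 (SE, adjusted p = 0.0485) lost its call without control siRNA replicate 1 (log2FC -0.25, adjusted p = 0.372), without either EA1 siRNA 1 replicate (0.103 and 0.0989) and without EA1 siRNA 2 replicate 2 (0.111). Without control siRNA replicate 2 it was -0.71. The call for EA1 siRNA 2 was lost without the same 4 libraries. The genes named in 1 complex, RAD51B, RAD51C, RAD51D and XRCC2, thus included a gene that rose after knockdown, 2 that fell and 1 that was not called.

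Of the strand exchange genes, the translocases fell and RAD52 was not called. RAD54L, a DNA motor that helps the broken end invade its template, was measured at 30.98 and 39.6 CPM in the control libraries, 8.96 and 9.72 CPM under EA1 siRNA 1, and 10.3 and 13.1 CPM under EA1 siRNA 2. Control was at least 2 times every knockdown value, and the log2FC was 1.92 ± 0.21 (SE) for EA1 siRNA 1 and 1.59 ± 0.20 for EA1 siRNA 2 (adjusted p = 2.32e-05 and 9.79e-05). RAD54B, its relative, was measured at 20.5 and 19.7 CPM in the control libraries, 10.7 and 9.55 CPM under EA1 siRNA 1, and 8.19 and 13.1 CPM under EA1 siRNA 2. EA1 siRNA 2 gave both the lowest and the highest of its knockdown values, all under control, and the log2FC was 0.99 ± 0.24 (SE) for EA1 siRNA 1 and 0.90 ± 0.23 for EA1 siRNA 2 (adjusted p = 0.00588 and 0.0107). That call was lost for EA1 siRNA 2 without control siRNA replicate 1 (adjusted p = 0.0525) and without EA1 siRNA 2 replicate 1 (0.0570). RAD54B shares 3511 exonic bases with FSBP on the same strand, so its counts could hold reads that belong to either gene. Over all libraries FSBP had 1331 counts beside 562 for RAD54B, and FSBP was not called with either siRNA (adjusted p = 0.784 and 0.955 by edgeR). RAD52, which anneals complementary single strands, was measured at 17.2 and 18.3 CPM in the control libraries, 17.8 and 18.3 CPM under EA1 siRNA 1, and 17.98 and 18.4 CPM under EA1 siRNA 2. These 6 values spanned hardly more than 1 CPM, and the log2FC was -0.02 ± 0.17 (SE) for EA1 siRNA 1 and -0.04 ± 0.17 for EA1 siRNA 2 (adjusted p = 0.934 and 0.893).

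**Figure D2:**
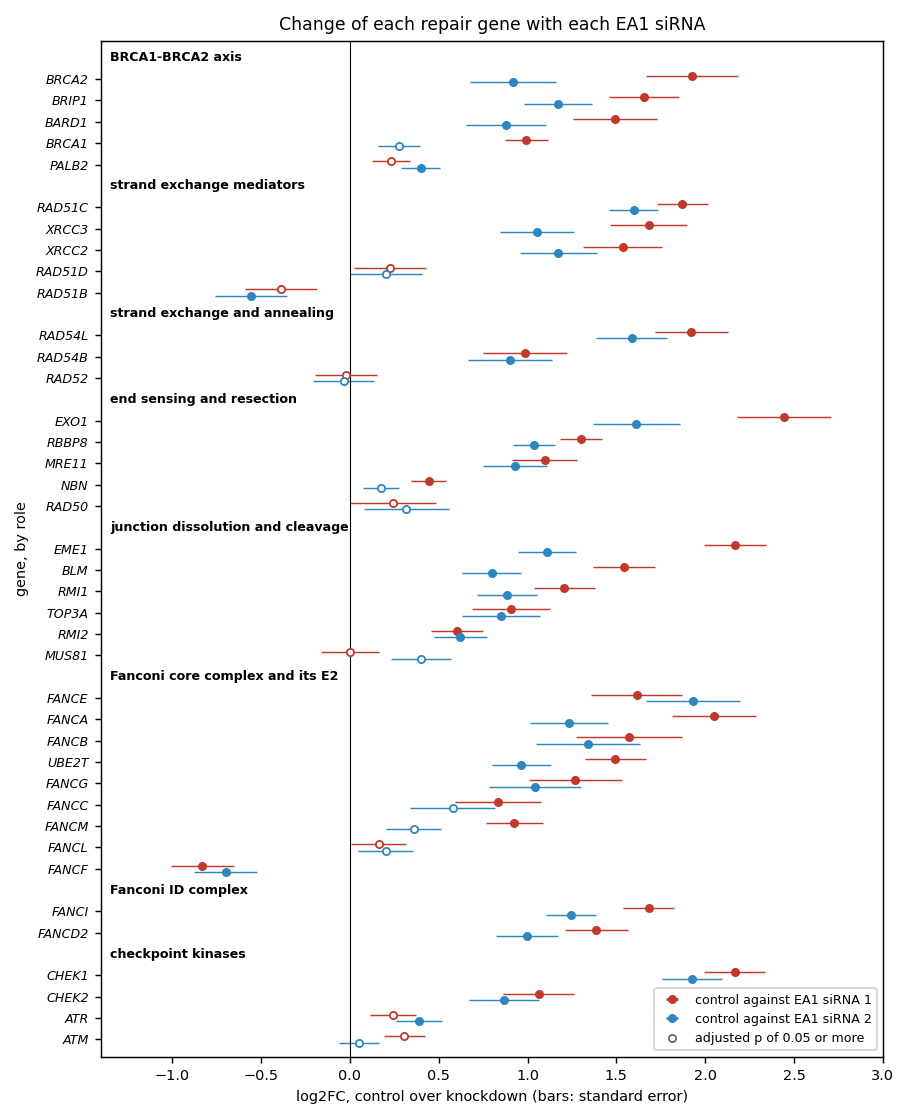
Change of each of the 39 repair genes with EA1 siRNA 1 (red) and EA1 siRNA 2 (blue), as log2FC of control over knockdown, grouped by role. Bars are standard errors from the fit and open circles mark an adjusted p of 0.05 or more. Most points lie well to the right of 0, and the 2 genes called to the left of 0 are RAD51B (EA1 siRNA 2 only) and FANCF. BRCA1 and EME1 were called between the siRNAs. The points of BRCA2, EXO1, FANCA and BLM lie further apart than those of BRCA1.

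Of the 6 genes that resolve joined DNA molecules, 5 fell and MUS81 was not called. EME1, the partner that MUS81 needs to cut such molecules (chr17:50373220-50381483, plus strand), was measured at 39.1 and 41.7 CPM in the control libraries, 9.67 and 8.23 CPM under EA1 siRNA 1, and 19.2 and 18.2 CPM under EA1 siRNA 2. The replicates of each condition were close, and EA1 siRNA 1 lay under EA1 siRNA 2, which lay under control. The log2FC was 2.17 ± 0.18 (SE) for EA1 siRNA 1 and 1.11 ± 0.16 for EA1 siRNA 2 (adjusted p = 3.38e-06 and 0.000275). MUS81, the nuclease itself, was measured at 32.03 and 29.4 CPM in the control libraries, 33.99 and 27.3 CPM under EA1 siRNA 1, and 24.9 and 21.8 CPM under EA1 siRNA 2. Its groups overlapped, EA1 siRNA 1 replicate 1 holding the highest value of all, and the log2FC was -0.00 ± 0.16 (SE) for EA1 siRNA 1 and 0.40 ± 0.17 for EA1 siRNA 2 (adjusted p = 0.998 and 0.0846). With the replicate number as a block MUS81 was called for EA1 siRNA 2 (adjusted p = 0.0438). On average the log2FC was 1.64 ± 0.14 for EME1 and 0.20 ± 0.14 for MUS81, and the difference between the genes was not tested.

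BLM, the helicase that dissolves double Holliday junctions, was measured at 41.2 and 44.6 CPM in the control libraries, 15.2 and 14.2 CPM under EA1 siRNA 1, and 21.2 and 27.9 CPM under EA1 siRNA 2. The 3 conditions formed separate ranges, and the log2FC was 1.54 ± 0.18 (SE) for EA1 siRNA 1 and 0.80 ± 0.17 for EA1 siRNA 2 (adjusted p = 3.71e-05 and 0.00312). The genes of the proteins that work with BLM fell too. RMI1 had an averaged log2FC of 1.05, the topoisomerase TOP3A of 0.88 and RMI2 of 0.61 (adjusted p = 0.000110, 0.00222 and 0.00203). All 4 members of this complex were called with each siRNA, although for EA1 siRNA 1 the call of TOP3A was lost without its replicate 1 (adjusted p = 0.0573) or control siRNA replicate 2 (0.0642) and that of RMI2 without its replicate 1 (0.0788). For EA1 siRNA 2 the call of TOP3A was lost without control siRNA replicate 2 (0.0907). EME1 shares 541 exonic bases with LRRC59 on the opposite strand, and MUS81 shares 759 with CFL1. Over all libraries LRRC59 had 14191 counts beside 941 for EME1, and CFL1 had 20979 beside 1143 for MUS81. CFL1 was not called with either siRNA (adjusted p = 0.239 and 0.232 by edgeR).

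In the Fanconi core complex and its ubiquitin-conjugating enzyme, 7 of 9 genes fell on average, 1 was not called and FANCF rose. FANCE, which links the core to FANCD2 (chr6:35452338-35467104, plus strand), was measured at 15.4 and 15.04 CPM in the control libraries, 4.98 and 4.94 CPM under EA1 siRNA 1, and 3.56 and 4.35 CPM under EA1 siRNA 2. Its lowest values were those of EA1 siRNA 2, and the log2FC was 1.61 ± 0.26 (SE) for EA1 siRNA 1 and 1.93 ± 0.27 for EA1 siRNA 2 (adjusted p = 0.000420 and 0.000185). FANCA, the core subunit most often mutated in Fanconi anemia (chr16:89726683-89816977, minus strand), was measured at 20.2 and 24.6 CPM in the control libraries, 5.83 and 4.94 CPM under EA1 siRNA 1, and 8.54 and 10.4 CPM under EA1 siRNA 2. The ranges were separate, EA1 siRNA 1 lowest, and the log2FC was 2.05 ± 0.24 (SE) for EA1 siRNA 1 and 1.23 ± 0.22 for EA1 siRNA 2 (adjusted p = 3.92e-05 and 0.00109). FANCA shares 2409 exonic bases with ZNF276 on the opposite strand.

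FANCF, an adaptor within the core (chr11:22622533-22625823, minus strand), was measured at 14.1 and 12.3 CPM in the control libraries, 22.6 and 24.4 CPM under EA1 siRNA 1, and 22.1 and 20.8 CPM under EA1 siRNA 2. Every knockdown library was above both control libraries. The log2FC was -0.83 ± 0.18 (SE) for EA1 siRNA 1 and -0.70 ± 0.18 for EA1 siRNA 2 (adjusted p = 0.00284 and 0.00941), so FANCF was 1.78-fold and 1.62-fold higher after knockdown, and the averaged call held under each alternative setting, while that for EA1 siRNA 2 was lost without control siRNA replicate 2 (adjusted p = 0.0901). It shares 315 exonic bases with GAS2, on the opposite strand, which had 85 counts over all libraries beside 769 for FANCF. FANCF was thus the gene of the 39 with the most negative averaged log2FC, -0.77, in a complex where FANCB, FANCC, FANCG and FANCM had averaged log2FC of 1.46, 0.71, 1.15 and 0.64. Without control siRNA replicate 2, FANCC was at 0.39 on average and no longer called (adjusted p = 0.244), and FANCG was no longer called for EA1 siRNA 2 (0.0582).

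UBE2T, the enzyme that supplies ubiquitin, fell with both siRNAs (averaged log2FC 1.23 ± 0.14, adjusted p = 3.06e-05), and FANCL, the ligase that it works with, was not called (0.18 ± 0.13, adjusted p = 0.293). Both substrates fell. FANCD2 was measured at 81.9 and 97.1 CPM in the control libraries, 30.4 and 38.2 CPM under EA1 siRNA 1, and 36.3 and 52.9 CPM under EA1 siRNA 2. FANCI was measured at 177 and 194 CPM in the control libraries, 57.2 and 58.5 CPM under EA1 siRNA 1, and 64.8 and 90.8 CPM under EA1 siRNA 2, the highest CPM in control among the 39. In both genes every knockdown library was under control and EA1 siRNA 2 replicate 2 was the knockdown library nearest to it. The log2FC of FANCD2 was 1.39 ± 0.18 (SE) for EA1 siRNA 1 and 1.00 ± 0.17 for EA1 siRNA 2 (adjusted p = 9.10e-05 and 0.000963) and that of FANCI was 1.68 ± 0.14 (SE) for EA1 siRNA 1 and 1.25 ± 0.14 for EA1 siRNA 2 (adjusted p = 4.92e-06 and 4.40e-05). FANCC and FANCM were called with EA1 siRNA 1 (adjusted p = 0.0172 and 0.000755) and not with EA1 siRNA 2 (adjusted p = 0.0799 and 0.0938), though FANCC was called for EA1 siRNA 2 with the replicate number as a block (adjusted p = 0.0200). The call of FANCC for EA1 siRNA 1 was lost without either replicate of that siRNA (adjusted p = 0.0733 and 0.0824) and without control siRNA replicate 2 (0.172).

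Of the checkpoint kinases, CHEK1 and CHEK2 fell with both siRNAs, ATR fell with EA1 siRNA 2 and on average, and ATM was not called. CHEK1, which ATR activates at stalled forks (chr11:125625163-125676255, plus strand), was measured at 47.1 and 51.4 CPM in the control libraries, 11.4 and 10.5 CPM under EA1 siRNA 1, and 11.7 and 14.04 CPM under EA1 siRNA 2. The knockdown values were close to each other and far under control. The log2FC was 2.17 ± 0.17 (SE) for EA1 siRNA 1 and 1.93 ± 0.17 for EA1 siRNA 2 (adjusted p = 2.94e-06 and 7.17e-06), and the averaged value of 2.05 ± 0.14 (SE, adjusted p = 5.96e-07) was the highest of the 39. CHEK2, which ATM activates at double-strand breaks, was measured at 25.6 and 24.9 CPM in the control libraries, 13.1 and 11.03 CPM under EA1 siRNA 1, and 11.7 and 15.7 CPM under EA1 siRNA 2. Control was clearly above the rest, and the log2FC was 1.06 ± 0.20 (SE) for EA1 siRNA 1 and 0.87 ± 0.20 for EA1 siRNA 2 (adjusted p = 0.00135 and 0.00508).

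ATR, the kinase of single-stranded DNA, was measured at 119.6 and 140.1 CPM in the control libraries, 107 and 113 CPM under EA1 siRNA 1, and 86.9 and 111 CPM under EA1 siRNA 2. Its lowest value was that of EA1 siRNA 2 replicate 1, and control replicate 1 lay only a little above the other knockdown libraries. The log2FC was 0.24 ± 0.13 (SE) for EA1 siRNA 1 and 0.39 ± 0.13 for EA1 siRNA 2 (adjusted p = 0.160 and 0.0355), and the averaged call (0.32 ± 0.11, adjusted p = 0.0374) was lost without control siRNA replicate 2 (adjusted p = 0.270) and without EA1 siRNA 1 replicate 1 or 2 (0.102 and 0.0539). The value for EA1 siRNA 2 was 0.25 without replicate 1 of that siRNA, no longer called (0.166), and 0.61 without replicate 2, and it was not called either without control siRNA replicate 2 (0.201) or EA1 siRNA 1 replicate 1 (0.0571). With DESeq2 over 3 conditions the averaged value of ATR was not called either. ATM, the kinase of double-strand breaks, was measured at 138 and 166 CPM in the control libraries, 121 and 125 CPM under EA1 siRNA 1, and 139 and 155 CPM under EA1 siRNA 2. Control and EA1 siRNA 2 overlapped, and the log2FC was 0.31 ± 0.11 (SE) for EA1 siRNA 1 and 0.05 ± 0.11 for EA1 siRNA 2 (adjusted p = 0.0520 and 0.767). With the replicate number as a block ATM was called for EA1 siRNA 1 (adjusted p = 0.0213).

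The order of levels between genes was set by RPKM, CPM per kilobase of the canonical transcript of each gene. In control, RAD51C stood highest at 43.4 ± 3.44 RPKM (SD, n = 2), followed by FANCI at 39.2 ± 2.47, UBE2T at 35.2 ± 0.123, RBBP8 at 34.2 ± 1.77, NBN at 31.9 ± 1.72 and RMI2 at 31.4 ± 0.769. UBE2T and RBBP8, and likewise NBN and RMI2, did not differ beyond their SD. A gap followed, from RMI2 to BRIP1 at 19.9 ± 5.35 RPKM. The lowest were FANCF at 4.01 ± 0.371, RAD51D at 2.29 ± 0.500 and RAD50 at 1.33 ± 0.189 RPKM. The median of the 39 was 11.8 RPKM in control, 3.93 under EA1 siRNA 1 and 6.02 under EA1 siRNA 2. With EA1 siRNA 1, NBN (23.5 ± 1.00 RPKM) and RMI2 (20.7 ± 2.00) were above RAD51C (11.9 ± 0.0482), and FANCF (7.14 ± 0.378) was above BRCA1 (6.60 ± 0.565).

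The order depends on the length used. With the length of all annotated exons in place of the canonical transcript, the 39 ranks correlated with the first order at a Spearman rho of 0.712. RAD51C went from rank 1 to rank 16 and RBBP8 from rank 4 to rank 1. FANCL, with 1658 bases in the canonical transcript and 37977 in all its annotated exons, went from rank 8 to rank 39. Across the 39 genes, the averaged log2FC had a rho of 0.173 with the control RPKM, of 0.183 with the control counts and of -0.06 with the canonical length. Over all genes tested, the log2FC had a rho of 0.207 with the control CPM. These describe genes, which are not independent, within the same 6 libraries.

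Further genes of these pathways were also more often higher in control than lower. The list held 51, of which 50 were in the table and 47 were tested. On average 25 of the 47 were higher in control and 3 lower, with a median log2FC of 0.50. These were 53.2% and 6.38%, beside 22.1% and 21.5% of all genes tested. Among those with a large log2FC were MND1, a cofactor of strand exchange (2.30 ± 0.41, adjusted p = 0.000855), and FIGNL1, an ATPase that acts in recombination (1.92 ± 0.16, adjusted p = 3.08e-06). USP1, the deubiquitinase of FANCD2, was also higher in control (1.70 ± 0.11, adjusted p = 4.68e-07). MND1 was near the limit of detection after knockdown, with 3 and 4 counts under EA1 siRNA 1. The genes that rose were REV3L, the catalytic subunit of translesion polymerase zeta (-0.92 ± 0.09, adjusted p = 9.48e-06), WDR48, the cofactor of the deubiquitinase of FANCD2 (-0.50 ± 0.10, adjusted p = 0.00146), and the helicase RECQL5 (-0.35 ± 0.11, adjusted p = 0.0197).

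**Figure D3:**
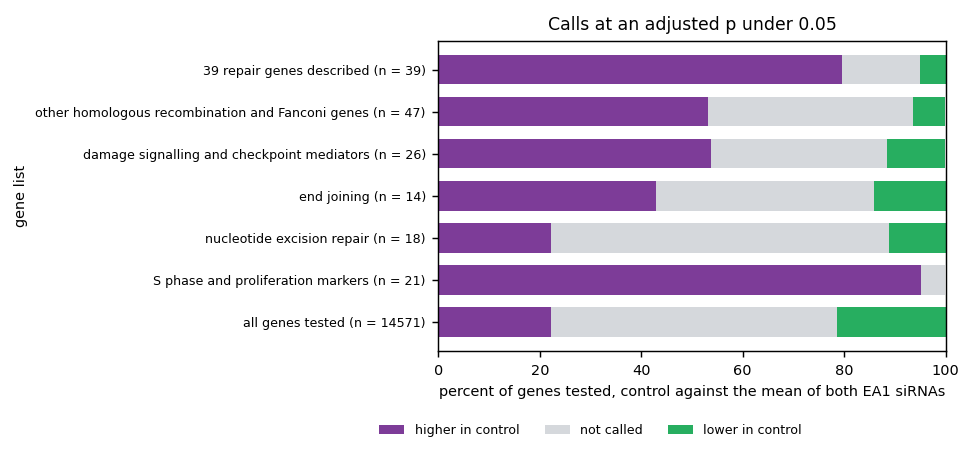
Share of each gene list called higher in control (purple), lower in control (green) or not called (grey), against the mean of both EA1 siRNAs, in percent of the genes tested in that list. The 39 repair genes stand at 79.5% higher in control, the other recombination and Fanconi genes at 53.2%, the S phase and proliferation markers at 95.2% and all genes tested at 22.1%.

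Markers of S phase and proliferation moved with these genes. Of the 21 on the list, among them the MCM helicase subunits, PCNA and MKI67, 20 were higher in control with each siRNA, and CCNE1 was not called. Their median log2FC was 1.55 for EA1 siRNA 1, 1.07 for EA1 siRNA 2 and 1.39 on average. Their summed level was 3018 and 3157 CPM in the control libraries, 1169 and 1150 CPM under EA1 siRNA 1, and 1465 and 1854 CPM under EA1 siRNA 2. The 39 repair genes summed to 2058 and 2344 CPM, to 1120 and 1115 CPM, and to 1217 and 1461 CPM in the same order. The 6 libraries fell in the same order by both sums, EA1 siRNA 2 replicate 2 being the highest of the knockdown libraries in each. The part of the S phase markers in the change of the repair genes was not tested.

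The siRNAs were then compared with each other, in the same fit. Of the 39 genes, BRCA1 and EME1 differed, both lower with EA1 siRNA 1, where 1.44% of all genes tested were called in that direction and 0.796% in the other. The log2 ratio of EA1 siRNA 1 over EA1 siRNA 2 was -0.72 ± 0.12 (SE, adjusted p = 0.0141) for BRCA1 and -1.06 ± 0.18 (adjusted p = 0.0147) for EME1. Same-numbered libraries of the 3 conditions deviated together weakly, and with the replicate number as a block 5 of the 39 were called, all lower with EA1 siRNA 1, where 3.64% of all genes tested were called in that direction and 2.22% in the other. The 3 added were BRCA2 (-0.98, adjusted p = 0.00231), BLM (-0.74, adjusted p = 0.0235) and FANCM (-0.56, adjusted p = 0.0411). In any size, 31 of the 39 were lower with EA1 siRNA 1, against 50.8% of all genes tested, with a median log2 ratio of -0.26. FANCE (0.32 ± 0.29) and MUS81 (0.40 ± 0.17) had the most positive ratios, neither of them called (adjusted p = 0.657 and 0.254). ATF1 itself had a log2 ratio of -0.09 ± 0.14 between the siRNAs (adjusted p = 0.817).

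The calls between the siRNAs rest on few libraries. For the settings below, the share of all genes called is not given, so these counts describe the 39 genes only. Without either of the EA1 siRNA 1 replicates, 0 of the 39 genes were called between the siRNAs by edgeR, with 11 at an unadjusted p under 0.05 in each case, and without EA1 siRNA 2 replicate 1, 9 were called, namely BRCA1, BARD1, BRIP1, BRCA2, EXO1, BLM, EME1, FANCD2 and FANCI. With all libraries, 15 had an unadjusted p under 0.05, and DESeq2 over the 3 conditions called 3, BRCA1, BRCA2 and EME1. Of the S phase markers, all 21 were lower with EA1 siRNA 1 in any size and 3 were called, and their part in the difference was not tested.

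The replicates of EA1 siRNA 2 were themselves apart for these genes. In replicate 2, 33 of the 39 were higher than in replicate 1, with a median log2 ratio of 0.301, where 50.2% of all genes tested were higher and the median ratio was 0.00139. In units of the control mean of each gene, the median over the 39 was 46.8% in EA1 siRNA 2 replicate 1 and 62.2% in replicate 2. The corresponding medians were 44.6% and 43.3% with EA1 siRNA 1, and 95.5% and 104.0% in control. In control too, 31 of the 39 were higher in replicate 2 (50.3% of all genes tested), with a median log2 ratio of 0.129. With EA1 siRNA 1, 16 of the 39 were (50.1% of all genes tested). The sum of the S phase markers was 1465 CPM in EA1 siRNA 2 replicate 1 and 1854 CPM in replicate 2, and its part in the difference was not tested.

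**Figure D4:**
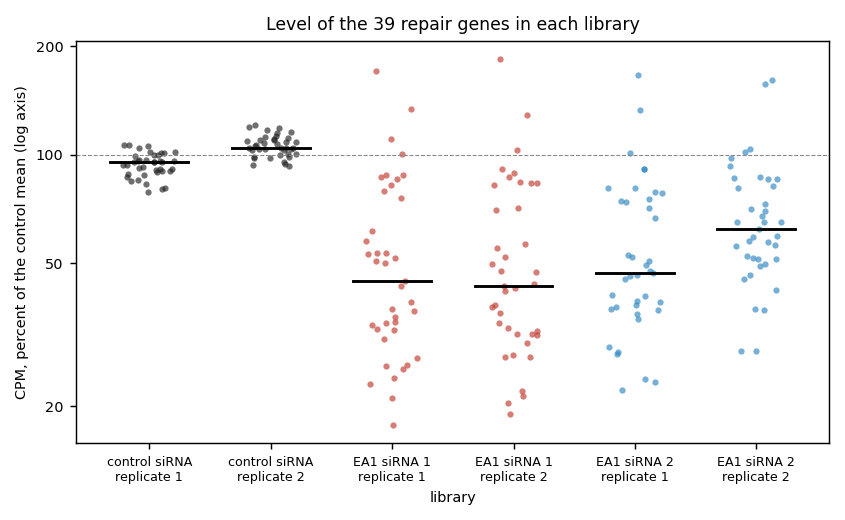
Level of the 39 repair genes in each library, as percent of the mean control CPM of each gene on a log axis. Each point is a gene, the bar is the median over the 39 and the dashed line marks 100%. The medians are 95.5% and 104.0% in control, 44.6% and 43.3% under EA1 siRNA 1, and 46.8% and 62.2% under EA1 siRNA 2.

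Some of these genes share exonic bases with another gene, and the sources used here do not give the strand setting of the counting, although the libraries were made with a kit that keeps strand. XRCC3 shares 5756 exonic bases with KLC1 on the opposite strand, and KLC1 was not called with either siRNA (adjusted p = 0.0876 and 0.921). LRRC59, opposite to EME1, was higher in control with both siRNAs and did not differ between them past the threshold (log2 ratio 0.02, adjusted p = 0.968). CHEK1 shares 53 bases with STT3A on the same strand, which was not called (adjusted p = 0.266 and 0.404), and NBN shares 827 with OSGIN2 on the opposite strand, which was higher in control with both siRNAs. For these genes the counts of the overlapped bases cannot be assigned with certainty.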

How the data were processed

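The deposited values are raw read counts per gene, which the authors made by aligning paired reads of stranded mRNA libraries to hg38 with BWA-MEM and counting with featureCounts 1.6.3; the version of the gene annotation is not given in the sources used here. Levels between genes used canonical transcript lengths of GENCODE 44. From these counts, genes were kept by filterByExpr (minimum count 10, minimum total 15), which left 14571 of 18118, 39 of 39 members among them, and libraries were scaled by TMM. The 6 libraries were fitted as 3 conditions of 2 with edgeR 4.0.16 in R 4.3.3 (glmQLFit, glmQLFTest, two-sided), with Benjamini-Hochberg adjustment over all genes tested and a threshold of 0.05. The common biological coefficient of variation was 0.109.

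The members and all gene lists were chosen with earlier results of these data known. Named with a value in every library were, in each of 8 role groups, the 2 members with the highest and the 1 with the lowest averaged log2FC, every member called lower in control or between the siRNAs, and BRCA1, BRCA2, FANCD2, ATM and ATR. From each other list, at most 3 called genes in each direction were named. Genes named for sharing exons were chosen after their values were seen. Some repair genes are not reported here. Replicate libraries correlated at 0.977 to 0.983 over genes and differed by more than sampling noise, so no library was counted as a copy. The labels tie the replicate numbers to no shared culture or day, but deviations of same-numbered libraries from their condition means correlated at 0.130 to 0.199 in each pair of conditions, so blocked values stand beside each call that they change. The fit was tested on simulated counts of 14145 genes, of which 98 changed by an absolute log2FC of 1 and 94 by 2. Of the genes called there, 9.58% were false with EA1 siRNA 1, 8.12% with EA1 siRNA 2 and 8.47% on average. These shares exceed the rate that the threshold sets, and calls close to it are best read with caution. Far fewer genes changed there than were called here, so neither these shares nor the recovered shares below need hold in these data. At an absolute log2FC of 1, 70.4%, 66.3% and 76.5% of the changed genes were recovered, in the same order. At 2, the shares were 87.2%, 87.2% and 92.6%, so a gene not called may still have changed. As alternatives, the filter was dropped or raised to 10 counts in each library, TMM was replaced by RLE, a block for the replicate number was added, single libraries were omitted, and DESeq2 1.42.0 was run over all 3 conditions or over the compared libraries alone. The floor of 3 counts covers counting error only.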

Additional observations from a re-analysis of the deposited data

Results flagged for a closer look

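The difference between the siRNAs in 2 of the 39 genes passed the test. For the fits with a library left out below, the share of all genes called is not given. BRCA1 had a log2 ratio of EA1 siRNA 1 over EA1 siRNA 2 of -0.72 (adjusted p = 0.0141 by edgeR), with both EA1 siRNA 1 libraries lower than both EA1 siRNA 2 libraries. EME1 had a ratio of -1.06 (adjusted p = 0.0147), again with both libraries of EA1 siRNA 1 lower. Without EA1 siRNA 1 replicate 1, and likewise without its replicate 2, edgeR called 0 of the 39 genes, with 11 at an unadjusted p under 0.05. With the replicate number as a block, the adjusted p was 0.00369 for BRCA1 and 0.00508 for EME1, and 5 of the 39 were called.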

How the results depend on the processing

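Of 429 averaged log2FC values recomputed for the 39 genes over 11 alternative settings that fit all 3 conditions, 410 kept their direction and their side of the threshold. Of the rest, 15 lost the call, 1 gained one and 3 changed sign: RAD52, never called, ranged from -0.041 to 0.011 with 1 library left out, at 0.011 without control siRNA replicate 1, at 0.0034 without EA1 siRNA 1 replicate 2 and at 0.0064 without EA1 siRNA 2 replicate 2. The lost calls fell on PALB2, RAD51B, NBN, FANCC and ATR. With DESeq2 over 3 conditions, PALB2, RAD51B and ATR were no longer called on average. The counts of genes higher in control stayed within 1.5 times under every setting. Of the 2 genes lower in control with EA1 siRNA 2 and on average, 1 was left with RLE size factors and with DESeq2 over 3 conditions in both comparisons, 1 on average with DESeq2 treating the 4 knockdown libraries as 1 condition, and 0 for EA1 siRNA 2 with DESeq2 over only the libraries compared, where FANCF alone had an unadjusted p under 0.05; leaving out 1 library each gave 1 to 2. The gene lost was RAD51B, except that without control siRNA replicate 2 FANCF lost its call for EA1 siRNA 2, and that DESeq2 over only the libraries compared lost both. The number called between the siRNAs, 2, was 4 with no filter on low counts and from 0 to 9 with 1 library left out. With the replicate number as a block 5 genes were called between the siRNAs, ATM was called for EA1 siRNA 1, FANCC and MUS81 were called for EA1 siRNA 2, and no other call among the 39 changed. The cause of these shifts was not tested. Apart from the replicate block between the siRNAs, the share of all genes called is not given for these settings. The size that could be called differed between genes: RAD50 at an averaged log2FC of 0.28 ± 0.21 (SE) was not called, while XRCC5, of the end joining list, was called at 0.24 ± 0.08 (adjusted p = 0.0333 by edgeR).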

Other observations

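Genes of damage signalling that surround the repair genes were more often higher in control than lower. Of 26 tested, 14 were higher in control and 3 lower on average (median log2FC 0.52). These were 53.8% and 11.5%, beside 22.1% and 21.5% of all genes tested. The phosphatase CDC25A, which CHEK1 marks for destruction, had an averaged log2FC of 2.01 ± 0.15 (SE, adjusted p = 1.64e-06), CLSPN, the mediator that ATR needs to activate CHEK1, of 1.77 ± 0.15 (SE, adjusted p = 3.10e-06), and TIPIN, of the fork protection complex, of 1.39 ± 0.20 (SE, adjusted p = 0.000183). CDC25A and CLSPN were also lower with EA1 siRNA 1 than with EA1 siRNA 2 (log2 ratio -1.08 and -0.90, adjusted p = 0.0248 and 0.0398). The 3 that were higher after knockdown were TP53BP1, which restrains resection (-0.68 ± 0.09, adjusted p = 9.71e-05), HUS1, of the 9-1-1 clamp (-0.49 ± 0.11, adjusted p = 0.00450), and BABAM2, of the BRCA1-A complex (-0.37 ± 0.12, adjusted p = 0.0255).

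Other repair pathways held calls in both directions. Among 14 end joining genes, 6 were higher in control and 2 lower (42.9% and 14.3%, beside 22.1% and 21.5% of all genes tested). POLQ, the polymerase of the end joining route that starts from resected ends, had an averaged log2FC of 1.76 ± 0.16 (SE, adjusted p = 5.31e-06), PAXX of 0.87 ± 0.19 (SE, adjusted p = 0.00343) and PRKDC, the kinase of the classical route, of 0.64 ± 0.09 (SE, adjusted p = 0.000183), while NHEJ1 (-0.63 ± 0.16, adjusted p = 0.00709) and APLF (-0.59 ± 0.22, adjusted p = 0.0440) were higher after knockdown. Of 18 nucleotide excision repair genes, 4 were higher in control and 2 lower, or 22.2% and 11.1%, shares near and under those of all genes tested, with a median log2FC of 0.01. The called genes of that list had averaged log2FC from 0.61 for the damage sensor DDB2 to -0.29 for ERCC6.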
